A study of Mus musculus with 12 samples.

Results

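Gene expression in the colorectal tissue of 6 mice that swam was compared with that of 6 mice that did not, over untreated mice and mice of the azoxymethane/dextran sulfate sodium (AOM/DSS) tumor model together. All 12 mice of the series entered the comparison, with 3 mice to a group (Ctrl, Ctrl_Swim, Model, Model_Swim), and the additive model held a term for swimming and a term for AOM/DSS. The comparison asked which genes swimming moved the same way with and without AOM/DSS, so every result is also given within the untreated mice (Ctrl_Swim vs Ctrl) and within the AOM/DSS mice (Model_Swim vs Model), which share no animals. All animals were male C57BL/6 mice bought at 4 weeks of age, with no genetic change named for any group. Model and Model_Swim mice were injected once intraperitoneally with 10 mg/kg of the carcinogen AOM. They then drank water with 2% DSS, which inflames the colon, for 7 days in each of 3 cycles, with plain water after each. Ctrl and Ctrl_Swim mice drank plain water throughout. Swimming mice were trained every morning for up to 90 min, from 2 months before the experiment until its end, and the other mice stood in shallow warm water. The hour at which the tissue was taken and its interval from the last swim are not given in the sources used here.

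The genes with the lowest p-values belonged to the circadian clock. In this clock, the protein of Arntl (BMAL1) pairs with CLOCK or NPAS2 and switches on the Per and Cry genes, whose proteins then repress the pair. The same pair drives Nr1d1 and Nr1d2, whose products repress Arntl, Npas2 and Nfil3 through ROR elements, and the output factors Dbp, Tef and Hlf, which act through D-boxes that the NFIL3 protein also binds. The clock runs in most tissues, the gut included, and genes of its activating and repressing branches are high at opposite times of the day. The hour of collection is not given for any group, so whether it differed between swimming and other mice was not tested. For these genes a difference in that hour cannot be told apart from swimming.

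The promoters of 4 of these genes are shown because they hold the DNA words through which these branches are linked. RefSeq promoters of GRCm38.p6, 250 bases before each start site and written 5′ to 3′ on the gene's strand, were searched on both strands for the E-box CACGTG, the D-box TTATGTAA or TTACGTAA, and the ROR element TAGGTCA or TGGGTCA, and the matches are in capitals. The first sequence is Per3 at chr4:151044666-151044915 on the minus strand with 2 D-boxes, 205 and 158 bases before the start site. The second is Tef at chr15:81802423-81802672 on the plus strand, the first of its 2 promoters, with an E-box 127 bases before the start. Ciart, at chr3:95882229-95882478 on the minus strand, held 3 E-boxes at 116, 58 and 44 bases. Nfil3, at chr13:52981040-52981289 on the minus strand, held a ROR element at 12 bases.
Per3: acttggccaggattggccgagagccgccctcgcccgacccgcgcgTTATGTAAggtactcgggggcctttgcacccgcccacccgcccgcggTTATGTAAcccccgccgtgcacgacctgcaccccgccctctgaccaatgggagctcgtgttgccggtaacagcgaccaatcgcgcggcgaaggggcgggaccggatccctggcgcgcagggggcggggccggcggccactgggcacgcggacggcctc
Tef: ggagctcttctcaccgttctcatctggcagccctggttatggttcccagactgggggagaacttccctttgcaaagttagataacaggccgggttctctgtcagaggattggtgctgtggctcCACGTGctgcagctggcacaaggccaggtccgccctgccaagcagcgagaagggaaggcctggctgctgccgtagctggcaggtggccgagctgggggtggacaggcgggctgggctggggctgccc
Ciart: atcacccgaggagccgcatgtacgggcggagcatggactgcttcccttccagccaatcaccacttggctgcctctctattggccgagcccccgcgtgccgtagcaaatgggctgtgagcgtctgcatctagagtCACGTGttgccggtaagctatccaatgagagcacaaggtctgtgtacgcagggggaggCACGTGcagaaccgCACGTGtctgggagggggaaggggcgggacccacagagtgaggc
Nfil3: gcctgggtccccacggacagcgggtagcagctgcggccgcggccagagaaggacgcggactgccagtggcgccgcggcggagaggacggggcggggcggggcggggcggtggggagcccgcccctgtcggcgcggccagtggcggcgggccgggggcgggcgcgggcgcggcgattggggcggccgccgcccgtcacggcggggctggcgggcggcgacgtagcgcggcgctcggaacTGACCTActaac

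Among all 32851 promoters of this length, 6.02% held the E-box, 0.931% the D-box and 5.38% the ROR element. An E-box also lay in the windows of Per1, Bhlhe41 and Cry1, while the windows of Arntl, Npas2, Clock, Dbp, Nr1d1, Nr1d2, Cry2, Hlf and Rora held none of these words. Only exact words before the start site were searched, so variant words and sites past the start were not counted. Entries were found for 16 of the 19 clock genes tested. A match describes the letters of the window and is not evidence of binding.

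Libraries held 17256953 to 19451055 counts, and 15484 of 18514 genes passed the filter on low counts. Mature colonocyte genes summed to between 16410 and 27253 CPM (read counts scaled to library size, after TMM scaling) and smooth muscle genes to between 10741 and 15800 CPM, so that the labelled colon tissue was present in every library. Proximal colon genes summed to 6135 to 6598 CPM in Ctrl and 3071 to 4810 CPM in Ctrl_Swim mice. They summed to 1615 to 4419 CPM in Model and 3224 to 5529 CPM in Model_Swim mice. Skeletal muscle genes ran from 56.2 to 820 CPM and squamous epithelium genes from 1214 to 4856 CPM over all libraries. Whether the dissected stretch of colon differed between mice was not tested. Pancreatic RNA differed between libraries in step with swimming. The sum of 6 pancreatic genes (Cela2a, Ctrb1, Pnlip, Cpa1, Prss2 and Cel) lay between 0.664 and 1.82 CPM in 5 of the 6 swimming libraries, and between 20.2 and 35.0 CPM in Ctrl 1 to 3, Ctrl_Swim 3 and Model 2. It reached 16203 CPM in Model 3 and 33664 CPM in Model 1. Ctrl_Swim 3 was thus the only swimming library with pancreatic reads at the level of the others, and swimming and this division of the libraries can be told apart only through it. The cause of the division was not tested, and fits with a term for it are given beside the results.

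Between swimming and other mice, 18 of the 15484 genes tested (0.116%) differed at an adjusted p under 0.05. The test was edgeR's quasi-likelihood test with Benjamini-Hochberg adjustment, and 5 genes were higher (0.0323%) and 13 lower (0.0840%) in swimming mice. Clock genes were at the top. Per3 had the lowest p of all genes, followed by Arntl and Npas2, and Nfil3 and Tef also changed. The others were Lrrn4cl, Cys1 and Tspan4, which rose, and E2f2, Tlr4, Creld2, Aldh1l2, Mical1, Ssh2, Lgals12, Pim1, Edem2 and St3gal3, which fell. At an unadjusted p under 0.05 there were 1711 genes (11.1%), 726 of them higher. In bulk tissue, less of a transcript per cell and fewer cells that carry it cannot be told apart.

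All 18 genes had the same sign and an unadjusted p under 0.05 in each arm on its own, which the choice of genes by their average over both arms favours. Over all genes tested, 44.5% had the same sign in both arms and 195 (1.26%) had the same sign with an unadjusted p under 0.05 in each, 67 higher and 128 lower, while 288 passed this p in both arms with opposite signs. Swimming and non-swimming mice did not overlap within either arm in 17 of the 18 genes, against 284 (1.83%) of all genes, and the exception was Lgals12. All 6 swimming mice lay on 1 side of all 6 others in 10 of the 18, against 108 genes (0.697%). Both counts rest on the mice by which the 18 genes were chosen, so they describe these genes and nothing is read from them. Just outside the threshold, Ephx1, Gsta3 and Per2 had an adjusted p of 0.0602 and just inside it St3gal3 had 0.0455.

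**Figure D1:**
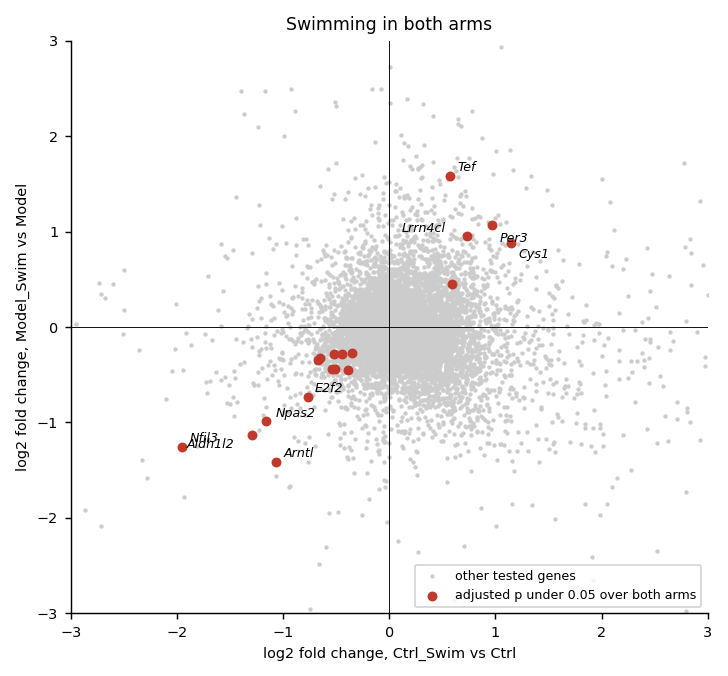
Log2 fold change of swimming in untreated mice (x axis) against that in AOM/DSS mice (y axis) for each gene tested, with the 18 genes that changed over both arms in red and 298 genes beyond the limits of 3 left out. The red genes all lie in the lower left and upper right of the plot, with Nfil3 lowest in untreated mice and Tef highest in AOM/DSS mice.

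Only Arntl and Per3 passed in both arms. In the fit of 4 groups, 150 genes (0.969%) passed between Ctrl_Swim and Ctrl, 26 higher (0.168%) and 124 lower (0.801%), and 11 genes (0.0710%) between Model_Swim and Model, 10 higher (0.0646%) and 1 lower (0.00646%). Of the 150 genes, 98 had the same sign in AOM/DSS mice, and 37 had an unadjusted p under 0.05 there (13.6% of all genes), 31 with the same and 6 with the opposite sign. Of the 11 genes, 9 had the same sign in untreated mice, and 6 had such a p there (17.6% of all genes), each with the same sign. Of the 18 genes of the joint comparison, 12 passed in untreated mice, 3 in AOM/DSS mice and 5 in neither. The interaction of swimming with AOM/DSS passed in 0 genes by edgeR, with 2947 genes (19.0%) at an unadjusted p under 0.05 and 0.0547 as the lowest adjusted p, in 766 genes by DESeq2 and in 3 by limma on FPKM values.

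Genes of the clock's repressing branch and output were higher in swimming mice. Per3, a period gene on chromosome 4 from 150997018 to 151044707, was at 39.3, 36.0 and 37.9 CPM in Ctrl mice and at 77.1, 73.7 and 71.2 CPM in Ctrl_Swim mice. It was at 18.9, 29.9 and 23.9 CPM in Model mice and at 55.7, 50.1 and 46.5 CPM in Model_Swim mice. All 6 swimming mice were above all 6 others. Per3 rose by 1.02 ± 0.09 (log2, standard error), 2.03-fold, with an adjusted p of 0.00180 by edgeR. The change was 0.97 in untreated and 1.07 in AOM/DSS mice, and the adjusted p of the interaction was 0.822 by edgeR.

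Tef, an output factor that acts through D-boxes and lies on chromosome 15 from 81802673 to 81826863, was at 116, 103 and 105 CPM in Ctrl mice and 183, 162 and 138 CPM in Ctrl_Swim mice. In Model mice it was at 32.7, 38.1 and 43.2 CPM, against 117, 122 and 103 CPM in Model_Swim mice. Within each arm the swimming mice were higher without overlap, but the Model_Swim mice lay in the range of the Ctrl mice or near it. Tef rose by 1.07 ± 0.17 (adjusted p = 0.0428), with 0.57 in untreated and 1.58 in AOM/DSS mice. This difference between the arms had an interaction p of 0.0001, adjusted p = 0.0894.

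Of the 13 genes in the list of clock repressors and output, Per3 and Tef passed and 11 had an unadjusted p under 0.05, each of them higher (4.69% of all genes). Their median log2 fold change was 0.76, with 0.50 in untreated and 1.06 in AOM/DSS mice, where the median over all genes was -0.003. In 8 of the 13 the mice did not overlap within either arm, all 8 higher in swimming mice (0.807% of all genes). The period genes Per2 and Per1 had log2 fold changes of 0.86 (adjusted p = 0.0602) and 0.81 (0.0755). Per2 was at 41.2, 35.1 and 27.1 CPM in Ctrl, 64.9, 70.7 and 43.1 in Ctrl_Swim, 21.8, 16.6 and 22.2 in Model and 45.4, 38.9 and 30.8 in Model_Swim mice, and so was higher in each swimming mouse of an arm than in each of the others. Nr1d2, which encodes the repressor REV-ERB beta, had 0.70 (0.0652), and Ciart, which encodes a repressor of the CLOCK pair and whose promoter held 3 E-boxes, had 1.90 (0.0770).

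Several of these genes had larger log2 fold changes in the AOM/DSS arm than in the untreated arm. The values were 1.05 in untreated and 2.94 in AOM/DSS mice for Ciart (interaction adjusted p = 0.115) and 0.78 and 2.26 for the output factor Dbp (interaction adjusted p = 0.118). They were 0.35 and 1.05 for Nr1d2 (interaction adjusted p = 0.115) and -0.00055 and 1.52 for Nr1d1 (interaction adjusted p = 0.0688), so that none of these differences between the arms passed by edgeR. Nr1d1, which encodes REV-ERB alpha, was at 130, 135 and 156 CPM in Ctrl and 153, 141 and 128 CPM in Ctrl_Swim mice, which overlapped, and at 44.2, 57.5 and 76.3 CPM in Model against 177, 165 and 170 CPM in Model_Swim mice, which did not. Cry1 and Bhlhe40, the 2 members without a p under 0.05, had -0.20 and 0.12 over both arms, with opposite signs in the arms, while Cry2, Bhlhe41 and Hlf had 0.37, 0.65 and 0.75 with the same sign.

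**Figure D2:**
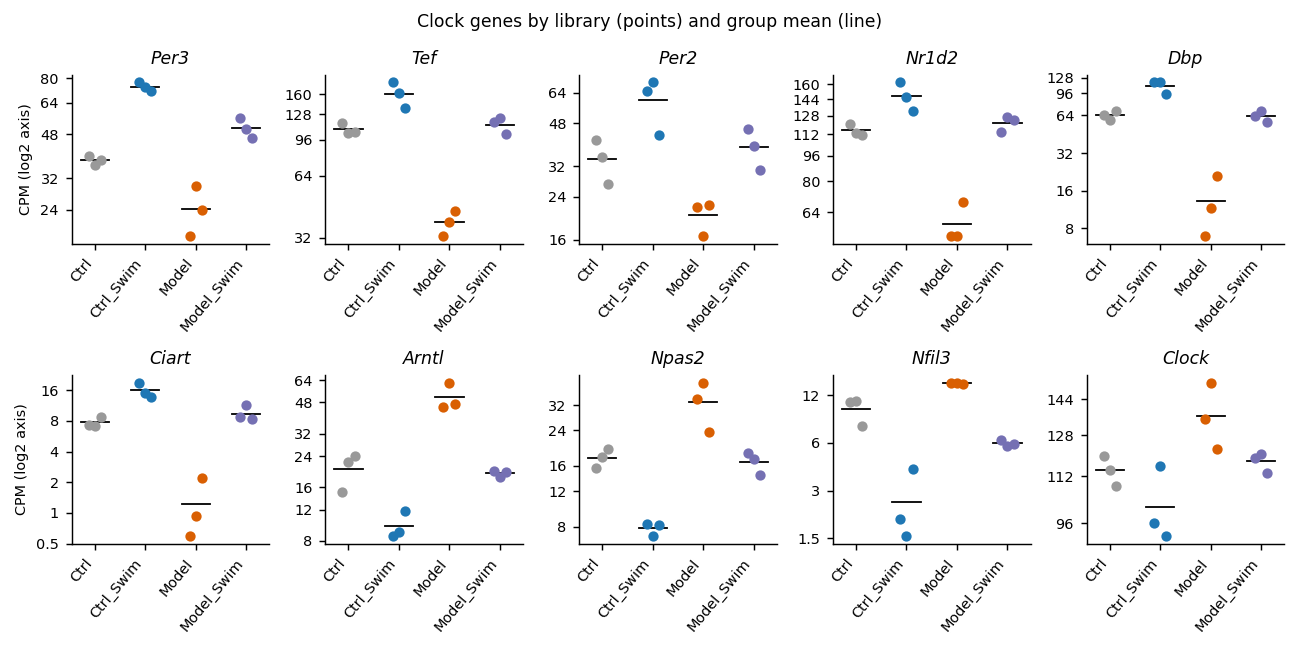
CPM of 10 clock genes in each library (points) and the mean of each group (lines), on a log2 axis for each gene. The upper row and Ciart are higher in swimming mice of both arms, and Arntl, Npas2 and Nfil3 are lower in both, while the points of Clock overlap in the untreated arm.

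Genes of the activating branch were lower. Arntl, on chromosome 7 from 113178471 to 113314126, was at 15.0, 22.2 and 23.97 CPM in Ctrl mice and at 8.49, 8.99 and 11.7 CPM in Ctrl_Swim mice. It was at 45.03, 62.2 and 46.8 CPM in Model mice and at 19.8, 18.4 and 19.6 CPM in Model_Swim mice, so that the mice did not overlap within an arm although Model_Swim mice lay within the range of the Ctrl mice. Arntl fell by 1.25 on the log2 scale (standard error 0.14, adjusted p = 0.00711), with -1.07 in untreated and -1.41 in AOM/DSS mice.

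Npas2, the CLOCK paralogue, on chromosome 1 from 39193702 to 39363240, was at 15.6, 17.7 and 19.4 CPM in Ctrl and 8.27, 7.18 and 8.13 CPM in Ctrl_Swim mice. The values were 34.3, 41.4 and 23.5 CPM in Model and 18.5, 17.3 and 14.4 CPM in Model_Swim mice, again without overlap within an arm. It fell by 1.07 (standard error 0.13, adjusted p = 0.0130), about equally in both arms, with -1.16 and -0.98 and an interaction p of 0.509. Nfil3, which encodes a repressor at D-boxes and lies on chromosome 13 from 52967209 to 52982878, had the largest fold change of the 18 genes, -1.59 (standard error 0.22, adjusted p = 0.0284). It was at 10.9, 11.01 and 7.64 CPM in Ctrl, 1.97, 1.54 and 4.09 CPM in Ctrl_Swim, 14.4, 14.4 and 14.1 CPM in Model and 6.27, 5.77 and 5.88 CPM in Model_Swim mice. All 6 swimming mice were below all 6 others.

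The list that holds these 3 genes had 6 tested members, 4 of them with an unadjusted p under 0.05, each lower (6.36% of all genes), and a median of -0.63, with -0.62 in untreated and -0.60 in AOM/DSS mice. Clock itself had -0.19 (adjusted p = 0.311), and Rora, which encodes an activator at ROR elements, had 0.18. Over the members of the list, the mean of log2(CPM + 1) relative to the non-swimming mice of the arm lay between -0.59 and -0.44 in Ctrl_Swim and between -0.71 and -0.57 in Model_Swim mice, and between -0.14 and 0.22 in the mice that did not swim. For the repressors and output the same mean lay between 0.30 and 0.59 in Ctrl_Swim, between 0.93 and 1.15 in Model_Swim, and between -0.25 and 0.22 in the other mice.

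Per3 kept an adjusted p under 0.05 in each of the 12 fits that left out a mouse, Arntl in 10, Npas2 in 9 and the other 15 genes in 3 to 6. Without Ctrl 3 or Ctrl_Swim 2, the adjusted p of Arntl was 0.0508 and 0.0543, and that of Npas2 was 0.0566 and 0.0543, and without Ctrl 2 that of Npas2 was 0.0617. With a term for the division of the libraries by pancreatic reads 0 genes passed by edgeR (756 at an unadjusted p under 0.05), the fold changes being 0.99 for Per3, -1.27 for Arntl, -1.26 for Npas2, -2.58 for Nfil3 and 0.78 for Tef, and all 18 genes had the sign they had without it.

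**Figure D3:**
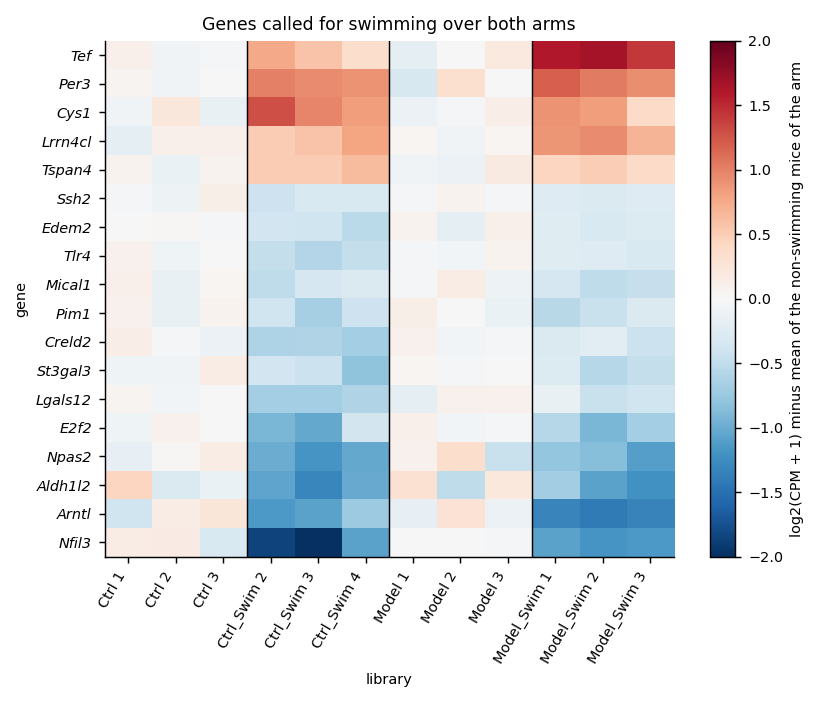
Log2(CPM + 1) of the 18 genes that passed, in each library, minus the mean of the non-swimming mice of the same arm (red higher, blue lower, color limits at 2 and -2). Each row has 1 color in all 6 swimming libraries, and the palest rows are Ssh2, Edem2 and Tlr4.

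The other 13 genes that passed lie outside the clock. Lrrn4cl, which encodes a leucine-rich repeat membrane protein, rose by 0.85 ± 0.11 (adjusted p = 0.0284), from 3.59 to 5.05 CPM in the mice that did not swim to 6.47 to 10.3 CPM in those that did. Cys1, which encodes the ciliary protein cystin, rose by 1.02 ± 0.14 (0.0284). It was at 5.74, 7.25 and 5.39 CPM in Ctrl, 16.3, 12.9 and 11.6 in Ctrl_Swim, 3.11, 3.38 and 3.90 in Model and 7.32, 6.96 and 4.82 in Model_Swim mice, so that Model_Swim reached about the level of Ctrl. Tspan4, a tetraspanin of the cell membrane, rose by 0.52 ± 0.08 (0.0299), and its 6 swimming mice, at 19.0 to 21.2 CPM, did not overlap the others, at 11.9 to 16.4 CPM.

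Among the genes that fell, Tlr4, the receptor for bacterial lipopolysaccharide, on chromosome 4 from 66827551 to 66846581, was at 51.3, 45.1 and 48.4 CPM in Ctrl and 34.4, 31.8 and 34.5 CPM in Ctrl_Swim mice. In Model mice it was at 47.4, 46.2 and 50.3 CPM and in Model_Swim mice at 40.3, 39.8 and 38.5 CPM. All swimming mice were lower. Tlr4 fell by 0.40 on the log2 scale (adjusted p = 0.0284), with -0.53 in untreated and -0.28 in AOM/DSS mice and an interaction p of 0.0209. E2f2, a transcription factor of the G1 to S transition, fell by 0.75 (0.0284), with -0.77 and -0.74 in the arms, and its swimming mice, at 14.9 to 28.6 CPM, were below the others, at 29.6 to 45.9 CPM. Pim1, a kinase of cell survival and growth, fell by 0.47 (0.0446).

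Aldh1l2, the mitochondrial enzyme that oxidizes 10-formyltetrahydrofolate, fell by 1.21 (standard error 0.19, adjusted p = 0.0400), from 8.66 to 17.5 CPM without swimming to 4.52 to 7.49 CPM with it. Edem2, a mannosidase that marks misfolded glycoproteins for degradation, fell by 0.36 (0.0446), and St3gal3, a sialyltransferase, by 0.49 (0.0455), both without overlap between the 6 and 6 mice. Mical1 and Ssh2, which act on actin filaments, fell by 0.42 and 0.31 (0.0400 each). Lgals12, a galectin best known from fat cells and named although it falls outside the rule for named genes, fell by 0.51 (0.0428). In untreated mice it was lower without overlap, while Model_Swim mice, at 25.9, 20.9 and 21.7 CPM, overlapped Model mice, at 25.5, 30.7 and 30.7 CPM. Of the 18 genes, 4 had an interaction p under 0.05 by edgeR, against 19.0% of all genes, namely Tef, Tlr4, Creld2 and Lgals12.

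The genes next in order of p that rose in both arms without overlap are given with values only, since none passed. Ephx1, the microsomal epoxide hydrolase, had a log2 fold change of 0.37 (adjusted p = 0.0602), Gsta3, a glutathione transferase, 0.41 (0.0602), and Cbr3, a carbonyl reductase, 0.61 (0.0621). Tsku, a secreted leucine-rich repeat protein, had 0.87 (0.0738) and Agmo, which cleaves ether lipids, 0.60 (0.0755).

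Genes of protein folding in the endoplasmic reticulum were lower, mainly in untreated mice. Creld2, which is induced when unfolded protein builds up there, fell by 0.49 (standard error 0.07, adjusted p = 0.0299). It was at 54.6, 49.2 and 46.1 CPM in Ctrl, 32.1, 32.3 and 30.9 CPM in Ctrl_Swim, 49.0, 44.2 and 44.9 CPM in Model and 37.3, 39.1 and 33.8 CPM in Model_Swim mice, all swimming mice being lower. Of the 20 genes in the list of endoplasmic reticulum stress, Creld2 was the 1 that passed, and 14 had an unadjusted p under 0.05, all lower (6.36% of all genes). The median was -0.25, with -0.38 in untreated and -0.12 in AOM/DSS mice. In untreated mice alone 10 of the 20 passed as lower (0.801% of all genes), in AOM/DSS mice 0 by edgeR, and 10 had an interaction p under 0.05 (19.0% of all genes). Calr, the chaperone calreticulin, had -0.48 in untreated and -0.18 in AOM/DSS mice (adjusted p over both = 0.115).

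Genes of cell division were also lower, with similar values in both arms. None of the 32 genes in the proliferation list passed by edgeR, 26 had an unadjusted p under 0.05, each lower (6.36% of all genes), and 16 passed by DESeq2, by which 335 genes passed in all, 119 higher and 216 lower. The median was -0.40, with -0.45 in untreated and -0.33 in AOM/DSS mice, and 1 of the 32 had an interaction p under 0.05 (19.0% of all genes). Cdc20, an activator of the anaphase-promoting complex, had -0.47 (adjusted p = 0.0991), Top2a, the topoisomerase of dividing cells, -0.41 (0.102), and the marker Mki67 -0.37 (0.158). Mki67 was at 351, 324 and 290 CPM in Ctrl, 197, 235 and 298 CPM in Ctrl_Swim, 288, 308 and 318 CPM in Model and 254, 250 and 223 CPM in Model_Swim mice, so that Ctrl_Swim 4 lay within the range of the Ctrl mice. Without Ctrl_Swim 4, 13 of the 32 passed, in a fit where 88 of all genes passed, 68 of them lower. In each other fit that left out 1 mouse 0 of the 32 passed.

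**Figure D4:**
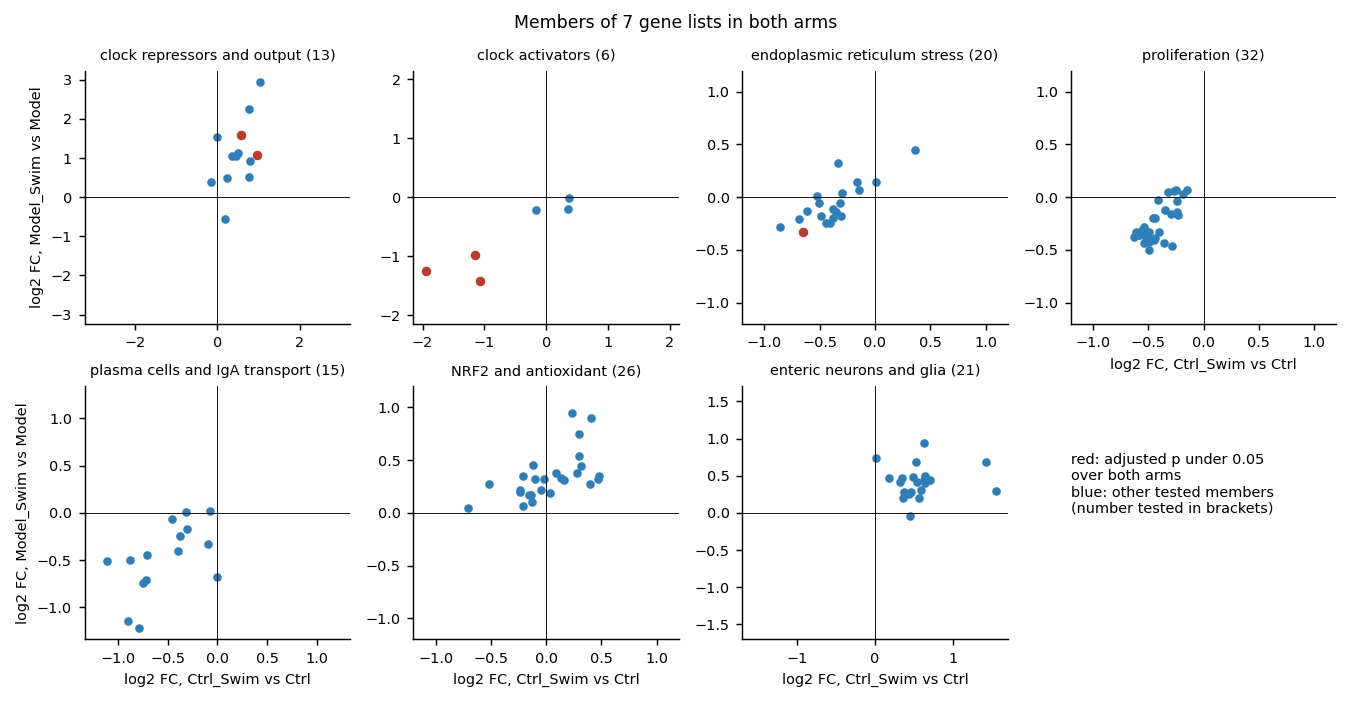
Log2 fold change of swimming in untreated mice (x axis) and in AOM/DSS mice (y axis) for the members of 7 gene lists, with genes that passed over both arms in red and the number tested in brackets. Proliferation and plasma cell genes lie mostly in the lower left and enteric neuron and glia genes in the upper right, while NRF2 genes are spread in untreated mice and mostly above 0 in AOM/DSS mice.

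Genes of plasma cells and IgA transport were lower in both arms as well. Of 15 tested members 0 passed by edgeR and 6 by DESeq2, each lower, where 216 of all genes passed as lower by DESeq2. An unadjusted p under 0.05 was found for 12, each lower (6.36% of all genes), and 6 were lower without overlap in both arms (1.03% of all genes). The median was -0.40, with -0.46 in untreated and -0.45 in AOM/DSS mice. Irf4, a transcription factor of plasma cells, had -0.71 (adjusted p = 0.0755), with -0.72 and -0.71 in the arms. It was at 22.9, 15.6 and 17.5 CPM in Ctrl, 8.60, 13.5 and 12.01 CPM in Ctrl_Swim, 18.9, 22.01 and 23.7 CPM in Model and 15.5, 11.1 and 12.9 CPM in Model_Swim mice. Fkbp11, a folding enzyme of secretory cells, had -0.81 (0.0893). Pigr, the epithelial receptor that carries IgA across the mucosa, had -0.46 in untreated and -0.07 in AOM/DSS mice.

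Genes of enteric neurons and glia were higher in both arms in 20 of 21 tested members (21.4% of all genes). Over both arms 13 of the 21 had an unadjusted p under 0.05, each higher (4.69% of all genes). By edgeR 0 passed. By DESeq2 6 of 22 passed, each higher, where 119 of all genes passed as higher. The median was 0.46, with 0.52 in untreated and 0.42 in AOM/DSS mice. S100b, a marker of glia, had 0.78 (adjusted p = 0.151) and Uchl1, a neuronal ubiquitin hydrolase, 0.57 (0.168). Uchl1 was at 17.8, 23.4 and 19.6 CPM in Ctrl, 26.5, 34.6 and 33.7 CPM in Ctrl_Swim, 9.49, 17.8 and 19.0 CPM in Model and 22.5, 20.7 and 22.2 CPM in Model_Swim mice. Model 1, which carried the most pancreatic RNA, was the lowest library. The mean of log2(CPM + 1) over the list, relative to the non-swimming mice of the arm, was 0.29 in Model 3 and -0.47 in Model 1, and Model_Swim mice, at 0.31 to 0.45, were just above Model 3. For genes of smooth muscle, the layer in which many of these cells lie, the median was 0.03 and 0 of 21 had an unadjusted p under 0.05. Their sum was also lowest in Model 1, at 10741 CPM, and the share of muscle wall in each sample was not tested.

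Genes of the NRF2 pathway, which protects cells from oxidants, were higher in Model_Swim than in Model mice. The median log2 fold change of swimming was 0.32 in AOM/DSS mice, 0.01 in untreated mice and 0.16 over both. Of 26 genes 0 passed by edgeR and 8 by DESeq2, each higher, where 119 of all genes passed as higher by DESeq2. At an unadjusted p under 0.05, 11 were higher (4.69% of all genes) and 1 lower (6.36%). Gclc, a subunit of the enzyme that starts glutathione synthesis, had 0.30 in untreated and 0.75 in AOM/DSS mice (adjusted p over both = 0.0893, interaction adjusted p = 0.187). It was at 136, 127 and 122 CPM in Ctrl, 176, 139 and 158 CPM in Ctrl_Swim, 95.2, 113 and 136 CPM in Model and 198, 192 and 187 CPM in Model_Swim mice, without overlap in either arm. Prdx6, a peroxiredoxin, had 0.09 (0.902).

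**Figure D5:**
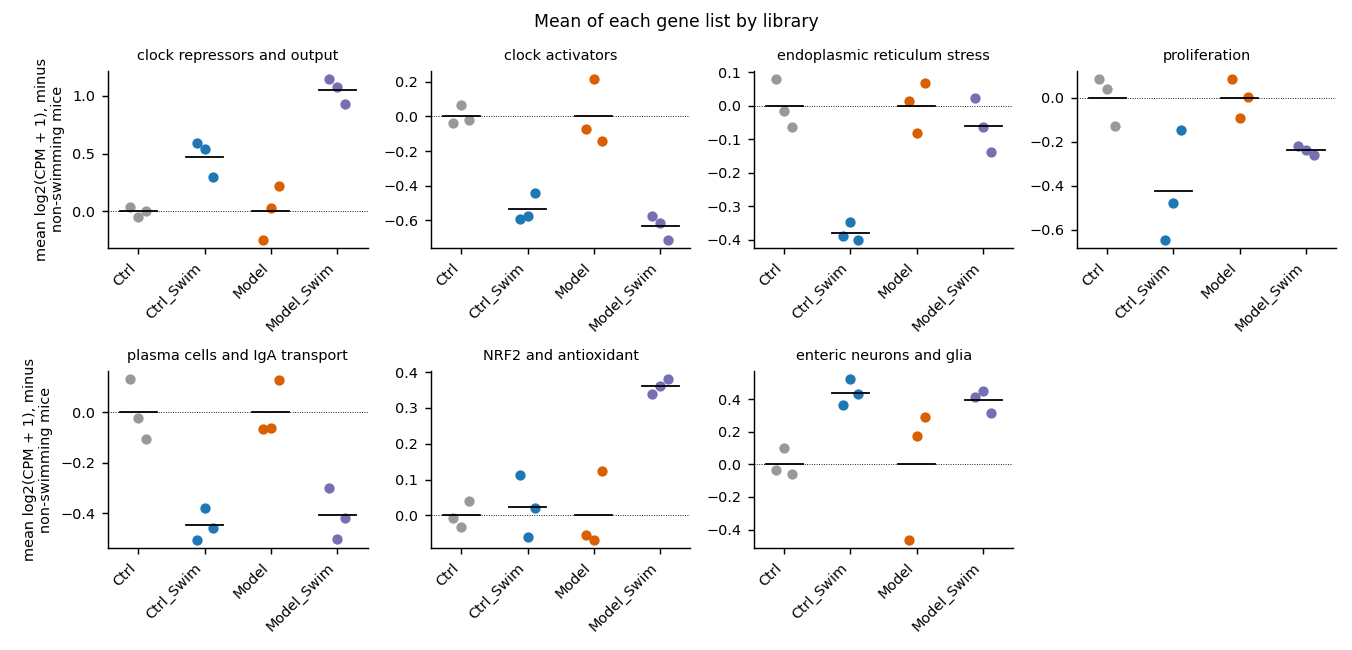
Mean of log2(CPM + 1) over the tested members of 7 gene lists in each library (points) and group (lines), minus the mean of the non-swimming mice of the same arm. Swimming and non-swimming mice do not overlap in either arm for 5 of the lists, while the endoplasmic reticulum list overlaps in the AOM/DSS arm and the NRF2 list in the untreated arm.

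Further lists are described by their medians and counts. Goblet cell genes had a median of -0.68 in untreated and 0.02 in AOM/DSS mice, with 13 of 20 genes at an interaction p under 0.05 (19.0% of all genes), and Capn9, a protease of goblet and surface mucous cells, had -1.45 and -0.13 in the arms. Sterol synthesis genes had medians of -0.33 and 0.07, with Mvk, the mevalonate kinase, at -0.39 and -0.07. B cell genes had medians of 0.67 and -1.09 and all 19 had an interaction p under 0.05, against the same share of all genes. Fibroblast and matrix genes had medians of -0.065 and -0.20, with 10 of 33 lower (6.36% of all genes) and 3 higher (4.69%) at an unadjusted p under 0.05, with Col3a1, a fibrillar collagen, at -0.34 and -0.29 and Col14a1, a collagen that binds fibrils, at 0.26 and 0.29 in the arms, and 0 passed by edgeR over both arms. Heat shock genes had 0 of 17 at such a p in either direction and a median of 0.02 over both arms.

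Of 24 tested genes of the pancreatic acinar list 21 were lower in swimming mice at an unadjusted p under 0.05 (6.36% of all genes), and 0 passed by edgeR over both arms. Its sum lay between 1745 and 2798 CPM in swimming and between 2801 and 58856 CPM in the other libraries. The most abundant member was Zg16, which the colon also expresses. Outside Model 1 and Model 3 the 6 pancreatic genes named above summed to at most 35.0 CPM. Most of the sum of the list in those libraries thus came from other genes. With the mean of this list as a covariate 2 genes passed, Per3 and Npas2, each with an adjusted p of 0.0447, and the adjusted p of Arntl was 0.0652. In that fit 1367 genes had an unadjusted p under 0.05 by edgeR. Among them were 9 of the 13 clock repressors and output genes and 4 of the 6 in the activator list. There were also 14 of the 20 endoplasmic reticulum, 22 of the 32 proliferation, 11 of the 15 plasma cell and 4 of the 21 neuron and glia genes, each in the direction given above. Of the 26 NRF2 genes 8 were higher and 1 lower. With a term for the division of the libraries, 4.88% of all genes had an unadjusted p under 0.05, and the members with such a p numbered 6 of the 13 clock repressors and output genes, 3 of the 6 in the activator list, 8 of the 20 endoplasmic reticulum genes, 20 of the 32 proliferation genes, 1 of the 15 plasma cell genes and 8 of the 21 neuron and glia genes, each in the direction given above. For the 26 NRF2 genes they numbered 2 higher and 2 lower.

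Genes that the study names for prostaglandins, membrane transport and signaling did not pass over both arms. The study describes another pattern for them, a change in Model mice that was reversed in Model_Swim mice. For cyclooxygenase-2 its evidence was staining of the protein. The values here are RNA averages over both arms and do not test that pattern. The log2 fold change was 0.27 for Ptger2, a receptor of prostaglandin E2 (adjusted p = 0.620), -0.17 for Ptges, its synthase (0.754), -0.33 for Ptgs2, which encodes cyclooxygenase-2 (0.573), and -0.30 for the phospholipase Pla2g4f (0.814). It was 0.10 for the Wnt receptor Fzd9 (0.949), 0.05 for the claudin Cldn15 (0.938) and 0.14 for the transferrin receptor Tfrc (0.738). Of these 7 genes, Ptger2 and Ptgs2 had the same sign in both arms, and the other 5 had opposite signs.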

How the data were processed

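One TruSeq Stranded mRNA library per mouse, from colorectal tissue of 12 mice, was sequenced. Reads were trimmed (Trimmomatic) and mapped to GRCm38.p6 (HISAT2) by the authors, who deposited raw read counts per gene from HTSeq-count and FPKM values from Cufflinks for 18514 genes listed by symbol. The deposited FPKM was 0 exactly where the count was 0. Versions of these tools are not given in the sources used here.

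Tests on counts used edgeR 4.0.16 (R 4.3.3) with TMM scaling (factors 0.932 to 1.08) and the filterByExpr filter at a minimum count of 10. The quasi-likelihood test was applied to swimming in an additive fit with AOM/DSS, and to each arm and the interaction in a fit of the 4 groups. The Benjamini-Hochberg adjustment was made per comparison over all 15484 genes, and a gene passed at an adjusted p under 0.05. In the fit of 4 groups the p-values rest on the spread between mice within all 4 groups, which both arms share. In the additive fit this spread also takes in any difference of the swimming effect between the arms. A single value in 3 against 3 mice cannot reach an exact two-sided p below 0.1. Alternatives were DESeq2 1.42.0, limma 3.58.1 on log2(FPKM + 1) or log2(FPKM + 0.1), no filter, a replicate block, covariates and left-out libraries. Code was tested on simulated data.

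Genes were named in order of p where their mean was at least 1 CPM, both arms had 1 sign and mice did not overlap within an arm, 12 in each direction, gene models and receptor segments left out. Further genes are list members and genes the study names. The 49 lists were written from general knowledge, and the comparison, the lists and the tests were chosen with earlier results of these data known. Of the 15484 symbols tested, 14866 matched RefSeq of GRCm38.p6, which gave positions and promoters.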

Additional observations from a re-analysis of the deposited data

How the results depend on the processing

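All 18 genes that passed over both arms had the same sign under each of the 26 alternatives. Their number was 17 with DESeq2's size factors, 12 without a filter, and 16 and 19 by limma on log2(FPKM + 0.1) and on log2(FPKM + 1) without a filter. It was 335 by DESeq2 (119 higher), 38 by limma on log2(FPKM + 1) (27 higher), 101 as the average of both arms in the fit of 4 groups, 129 with the position list and 62 with the squamous list as a covariate, 84 without Model 1 and Model 3, 7 at the study's cutoffs on fold change, 2 with the acinar list as a covariate, and 0 with the term for the division of the libraries or without the AOM/DSS term (756 and 1082 at an unadjusted p under 0.05 by edgeR). Of these genes, the number with the same direction in both arms was 335, 38, 98, 129, 61, 84, 2 and 0 under DESeq2, limma on log2(FPKM + 1), the average of both arms, the position, squamous and left-out Model settings, the acinar list and the division. Leaving out 1 mouse gave between 1 and 107 genes, all but 1 of the 57 without Model 2 with the same direction in both arms, namely 3, 2 and 1 without Ctrl 1, 2 and 3, 1, 5 and 88 without Ctrl_Swim 2, 3 and 4, 17, 57 and 107 without Model 1, 2 and 3, and 18, 4 and 6 without Model_Swim 1, 2 and 3.

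In untreated mice, 150 genes became 646 by DESeq2, 48 by limma, 63 with the acinar list, 26 at the study's cutoffs and 0 to 302 with 1 mouse left out (0 without Ctrl 1, Ctrl 3 or Ctrl_Swim 3). In AOM/DSS mice, 11 became 361 by DESeq2, 49 without a filter, 0 with the acinar list and 6 to 882 with 1 mouse left out, the highest without Model 3. The interaction gave 766 by DESeq2, 3 by limma and 0 to 716 with 1 mouse left out, again highest without Model 3. The cause of these changes was not tested.

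Replicate numbers are shared between groups, and the main fits did not take them to pair the mice. Deviations of mice with the same number were correlated above 0.1 in 4 of 15 pairs (-0.261 to 0.564). Ctrl_Swim 3 had 0.564 with Model 3 and 0.219 with Model_Swim 3. Model 3 had 0.167 with Model_Swim 3, and Model 2 had 0.405 with Model_Swim 2. Mice with different numbers were not compared, so whether the numbers pair the mice was not tested. With the replicate block 13 genes passed over both arms, 6 of them among the 18, 1 in untreated mice, 26 in AOM/DSS mice and 0 in the interaction.

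Among the named genes, 15 values changed sign, none of them of a gene that passed. With the term for the division these were Bhlhe40 (-0.17), Cldn15 (-0.16), Clock (0.034), Cry1 (0.18), Pla2g4f (0.069) and Tfrc (-0.053). With the acinar list they were Bhlhe40 (-0.085) and Cldn15 (-0.13). Cldn15 had -0.025 without the AOM/DSS term and -0.0183 without Model 1 and Model 3, and with 1 mouse left out it ran from -0.052 (without Model 1, the 1 such fit below 0) to 0.138. Fzd9 had -0.00712 without the AOM/DSS term, and from -0.063 to 0.229 with 1 mouse left out, below 0 without Ctrl_Swim 3, Model 2 or Model_Swim 2. Depth limits little here, since a count of 3 is at most 0.174 CPM and each gene that passed lay above 1 CPM in every library.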

Other observations

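Further lists not described above are given here. Genes of enteroendocrine cells, the hormone cells of the gut lining, had a median log2 fold change of 0.30 (0.23 in untreated and 0.37 in AOM/DSS mice), and 6 of 24 were higher and 0 lower at an unadjusted p under 0.05, against 4.69% and 6.36% of all genes. Tac1, which encodes substance P, is also made by enteric neurons and stands in the list of distal colon and rectum position too, had 0.47 (adjusted p = 0.132 by edgeR). It was at 16.4, 16.3 and 14.5 CPM in Ctrl, 20.1, 25.3 and 18.1 CPM in Ctrl_Swim, 11.1, 13.7 and 9.70 CPM in Model and 14.8, 18.4 and 15.8 CPM in Model_Swim mice, without overlap in either arm. Of 33 fatty acid oxidation and ketogenesis genes, 22 were higher in both arms (21.4% of all genes) and 5 were higher at an unadjusted p under 0.05, and of 77 cytosolic ribosomal protein genes 70 were higher in both arms, with a median of 0.09 and 7 higher at such a p. Genes of endothelium and lymphatics had a median of 0.46 in untreated and -0.05 in AOM/DSS mice, with 5 of 19 higher at such a p over both arms, among them Flt4, a receptor of lymphatic endothelium, at 0.54 and 0.25 in the arms (adjusted p over both = 0.132). In these 4 lists 0 genes passed over both arms by edgeR, the 1 tool by which they were counted. Genes were named here after their values were seen.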
